A study of Mus musculus with 26 samples.

Results

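The genes described here are 9 named rows of a gene count table from mouse embryonic stem cells (ESCs), out of 24421 genes in the table: the keratins Krt7, Krt8, Krt18 and Krt19, the adhesion genes Cdh1, Epcam and Itga3, the focal adhesion gene Zyx and the epithelial transcription factor gene Grhl2. The rows were taken by gene name. The study removed the orphan nuclear receptor ERR beta (gene Esrrb) and put a receptor back under doxycycline control. WT/Mock clones were wild type and KO/Mock clones were ERR beta -/-, both with no ectopic expression. The other 5 groups were ERR beta -/- clones expressing wild type ERR beta (KO/ERRb-wt), ERR beta deficient in DNA binding (KO/ERRb-DBDm3), in binding of the general transcription factor TFIIH (KO/ERRb-DBDm6) or of coactivators (KO/ERRb-AF2M6), or wild type ERR gamma (KO/ERRg-wt). Every group, the mocks included, received doxycycline at 2 µg/ml for 3 days on poly-L-ornithine and laminin in N2B27 medium with PD and CH. The growth protocol adds LIF to this medium and the design text does not, so its presence is not settled. Each group held 2 clones, and each clone gave 2 libraries except those of KO/ERRg-wt, which gave 1 each, so that 14 clones gave 26 libraries.

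Keratins are the intermediate filament proteins of epithelial cells, and each filament is built from pairs of a type II and a type I chain. Krt8 and Krt7 are type II chains, and Krt18 and Krt19 are type I chains. Krt8 and Krt18 are the first keratins to appear in the embryo and are best known there from the trophectoderm, while Cdh1 (E-cadherin) and Epcam hold undifferentiated ESCs together in colonies. Itga3 is the integrin alpha chain that binds laminins as a partner of Itgb1, zyxin (Zyx) is a LIM protein of focal adhesions and stress fibres, and Grhl2 is a grainyhead-like activator of epithelial genes including Cdh1.

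All 9 genes passed the filter on low counts, which kept 15238 genes. Clone totals ran from 25103562 to 54105869 counts. Levels are CPM, counts relative to the TMM-scaled total of a clone, with the SD of 2 clones. A gene was called where the adjusted p of edgeR's quasi-likelihood test, fitted to all 14 clones, was below 0.05, and fold changes are log2 ± SE. The p-values here set the difference between groups against the spread of clones within groups. The labels name established clones without their derivation, so the source of that spread is not known. The Esrrb row stood at 605 ± 37.1 CPM in WT/Mock, 274 ± 1.26 in KO/Mock and between 430 and 517 on average in the other 5 groups. These counts do not separate the locus from a construct, and KO/ERRg-wt, with no ERR beta construct named, also stood at 474 ± 5.06 CPM, so the row does not check the knockout. Esrrg stood at 177 ± 73.1 CPM in KO/ERRg-wt and had 0 counts in KO/Mock, which allows up to 0.033 CPM. The 8 markers of ESC identity (Pou5f1, Sox2, Nanog and others) were detected in every clone. Chromosomes 6, 8 and 14 were shifted as a whole. The median gene of chromosome 14 was lower in all 12 ERR beta -/- clones, by a log2 ratio of -0.63 to -0.51 against WT/Mock. The medians of chromosomes 6 and 8 were lower in the 8 clones of the mutants and ERR gamma only, by -0.95 to -0.34 and -0.54 to -0.43. Zyx lies on chromosome 6 and Cdh1 on chromosome 8. In bulk RNA of this kind, fewer cells expressing a gene and less RNA of it per cell cannot be told apart.

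Per kilobase of exon, Cdh1 (99.5 CPM per kb over the 14 clones) and Epcam (98.5) were abundant, at percentiles 94.7 and 94.6 of the tested genes. The keratins were not. Krt8 averaged 7.51 CPM per kb (percentile 52.1), Krt18 4.55 (43.1), Krt19 1.56 (29.1) and Krt7 1.46 (28.3). Zyx (5.62), Grhl2 (3.83) and Itga3 (2.57) lay at percentiles 46.8, 40.4 and 34.6.

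**Figure D1:**
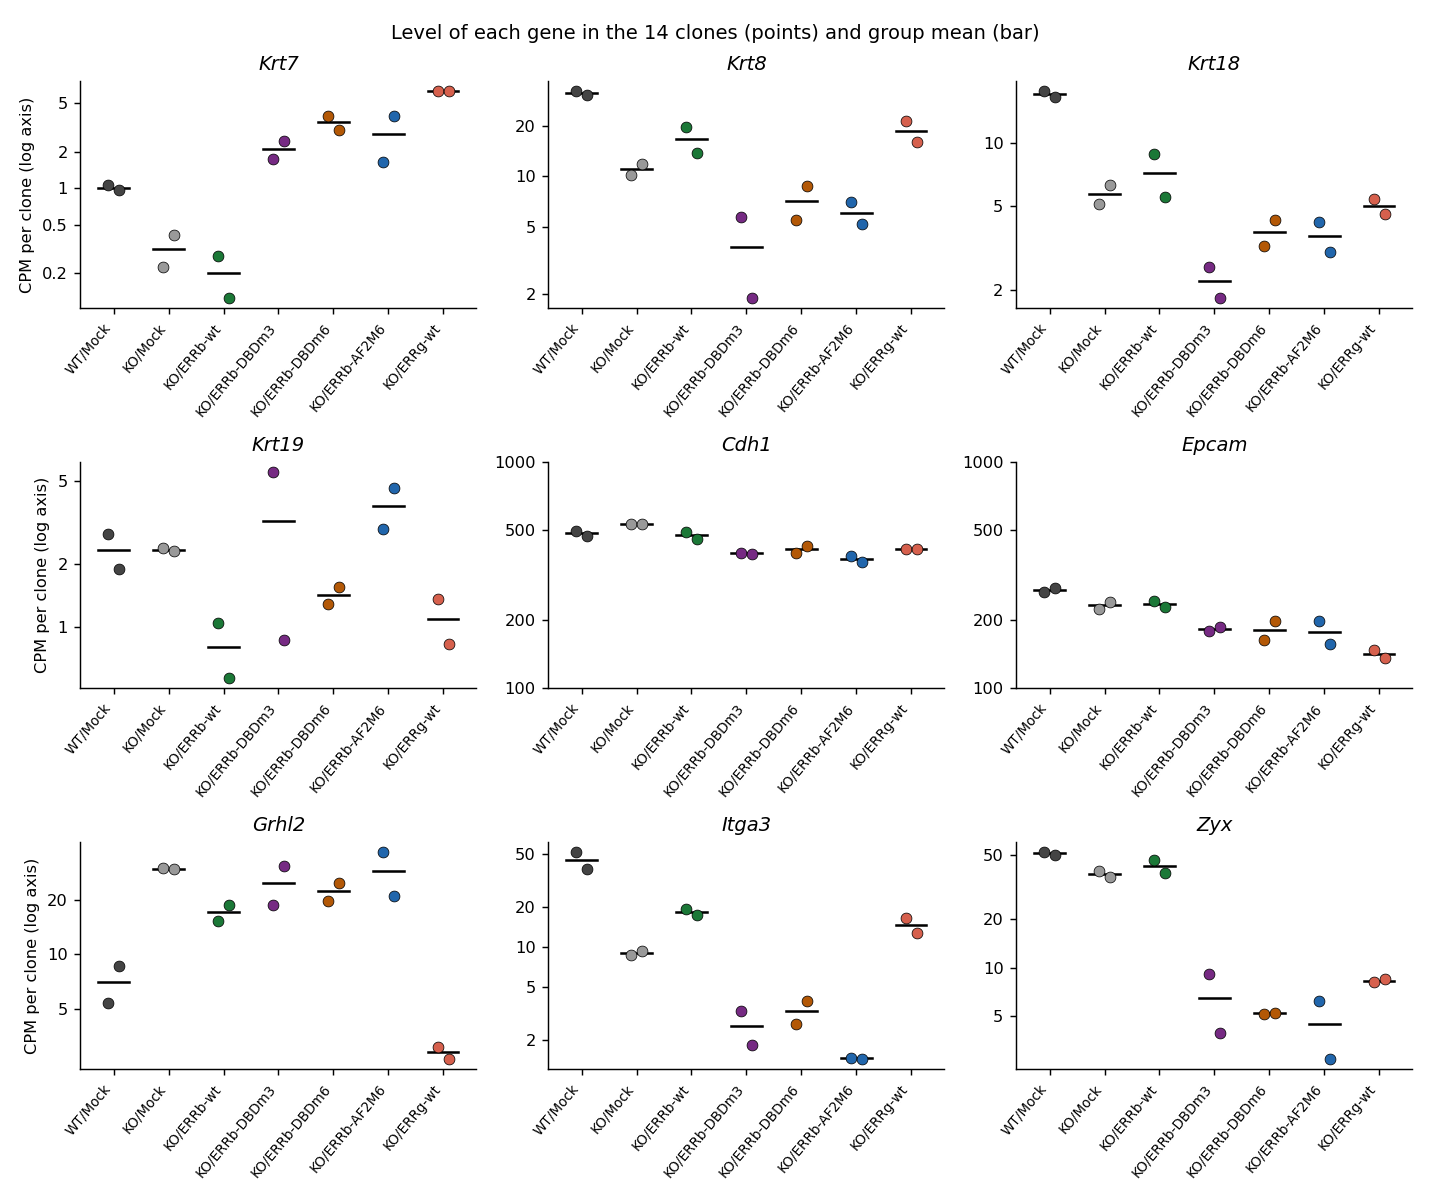
Level of each gene in each of the 14 clones, in CPM on a log axis, with 1 panel per gene; points are clones and the bar is the group mean. Krt8, Krt18 and Itga3 are highest in WT/Mock, Krt7 is highest in KO/ERRg-wt at 6.27 CPM in both clones, Zyx lies at or below 9.1 CPM in the mutants and ERR gamma, and Cdh1 and Epcam stay within a narrow band.

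Krt8 (mm10 chr15:101996711-102004342, minus strand) and Krt18 (chr15:102028216-102032026, plus strand) are neighbours that are transcribed away from each other, and Krt7 (chr15:101412403-101427806, plus strand) lies in the same cluster. The 250 bases before the start of each are shown because Krt8 and Krt18 moved together and Krt7 moved apart from them. They are RefSeq sequences of GRCm38.p6, written 5′ to 3′ on the gene's own strand with CG dinucleotides in capitals, at chr15:102004343-102004592 for Krt8, chr15:102027966-102028215 for Krt18 and chr15:101412153-101412402 for Krt7.
Krt8: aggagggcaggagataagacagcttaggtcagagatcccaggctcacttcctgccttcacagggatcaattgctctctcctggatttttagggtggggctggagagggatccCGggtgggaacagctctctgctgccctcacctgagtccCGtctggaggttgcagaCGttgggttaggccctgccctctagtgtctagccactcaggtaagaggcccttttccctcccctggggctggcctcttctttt
Krt18: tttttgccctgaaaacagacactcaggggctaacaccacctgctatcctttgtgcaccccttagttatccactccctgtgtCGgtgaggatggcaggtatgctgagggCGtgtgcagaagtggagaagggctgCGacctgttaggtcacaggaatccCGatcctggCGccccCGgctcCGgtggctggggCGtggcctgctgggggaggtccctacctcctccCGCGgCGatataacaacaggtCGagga
Krt7: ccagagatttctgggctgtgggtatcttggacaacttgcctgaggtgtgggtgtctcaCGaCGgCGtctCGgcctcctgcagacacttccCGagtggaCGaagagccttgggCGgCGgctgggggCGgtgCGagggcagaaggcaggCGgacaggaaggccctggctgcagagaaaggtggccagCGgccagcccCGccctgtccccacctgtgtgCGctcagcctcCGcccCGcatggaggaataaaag
The Krt8 window holds 3 CG dinucleotides, against a median of 6 over all 32851 RefSeq windows of this length, whereas the Krt18 window holds 12 and the Krt7 window 16. Windows were given for 6 of the 9 genes (Krt7, Krt8, Krt18, Epcam, Itga3 and Zyx), reaching from 250 bases before to 50 after the start. None of their 7 windows holds, on either strand, the ERR response element TCAAGGTCA (0.423% of all windows), its core AAGGTCA (4.72%, a count that includes the longer motif) or the grainyhead-like site AACCGGTT (0.146%). That says only that these letters are not in these windows.

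Krt8 fell in the knockout to 35.1% of its wild type level. Its 2 clones stood at 32.2 and 30.6 CPM in WT/Mock and at 10.1 and 11.9 CPM in KO/Mock (31.4 ± 1.18 against 11.0 ± 1.24, log2 -1.51 ± 0.38, adjusted p = 0.0109), and the groups did not overlap. Clones with wild type ERR beta reached 19.6 and 13.8 CPM, above both KO/Mock clones and below both WT/Mock clones. Neither difference passed the test (log2 0.60 ± 0.38 against KO/Mock, adjusted p = 0.408, and -0.91 ± 0.37 against WT/Mock, adjusted p = 0.14). Both passed with only the compared clones fitted (adjusted p = 0.0471 and 0.0116), and over all alternatives the adjusted p ran from 0.0471 to 0.856 and from 0.00133 to 0.539. In KO/ERRb-DBDm3 Krt8 stood at 5.73 and 1.89 CPM, lower than in KO/Mock (-1.52 ± 0.40, adjusted p = 0.0189) and the lowest group mean of the 7. That call was lost without 12-1, without 12-3, without 9-8 (where the log2 value became -0.94), without a filter and on the 4 clones alone, over a range of 0.000278 to 0.158. It was 5.52 and 8.77 CPM in KO/ERRb-DBDm6 and 7.0 and 5.18 in KO/ERRb-AF2M6, differences from KO/Mock that missed the test (-0.62 ± 0.39, adjusted p = 0.222, and -0.85 ± 0.39, adjusted p = 0.108). Their alternatives lay on both sides of the threshold, from 0.0481 to 0.635 and from 0.0129 to 0.382. Against KO/ERRb-wt all 3 mutants were called lower, by -2.12 ± 0.40, -1.22 ± 0.39 and -1.46 ± 0.39. The second of these calls was lost without 8-3, without 10-24 and without a filter, the third without 8-3 or 32-31, and the first on the 4 clones alone. ERR gamma clones held 21.4 and 16 CPM, the second highest group mean, which overlapped with KO/ERRb-wt and was not called against it (0.16 ± 0.38, adjusted p = 0.791) or against KO/Mock (0.76 ± 0.38, adjusted p = 0.14, but 0.00021 on the 4 clones alone, over a range of 0.00021 to 0.459).

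Krt18, the usual partner chain of Krt8, followed the same order of groups except in ERR gamma clones. It stood at 17.6 and 16.5 CPM in WT/Mock and fell to 5.12 and 6.32 CPM in KO/Mock (log2 -1.57 ± 0.26, adjusted p = 0.00126). With wild type ERR beta the clones read 8.91 and 5.52 CPM, overlapping with KO/Mock (0.34 ± 0.26, adjusted p = 0.498) and below WT/Mock (-1.24 ± 0.25, adjusted p = 0.0142). KO/ERRb-DBDm3 was again the lowest, at 2.58 and 1.84 CPM, and fell against KO/Mock (-1.36 ± 0.27, adjusted p = 0.00461). The clones of KO/ERRb-DBDm6 (3.23 and 4.33 CPM) and KO/ERRb-AF2M6 (4.21 and 3.05 CPM) lay below both KO/Mock clones without a call (adjusted p = 0.0899 and 0.071, over ranges of 0.0103 to 0.377 and 0.0466 to 0.322), and were called lower than KO/ERRb-wt (-0.93 ± 0.26 and -0.99 ± 0.26), the one call lost without 8-3 or 10-24 and the other without 8-3 or 32-31. In KO/ERRg-wt, where Krt8 had its second highest mean, Krt18 read 5.45 and 4.62 CPM, overlapping with KO/Mock (-0.18 ± 0.27, adjusted p = 0.617). Over the 14 clones Krt8 and Krt18 had a Pearson r of 0.915 on the log2 CPM scale, a description over clones that share groups.

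The ratio of Krt8 to Krt18 per kilobase shows where the pair came apart. It was 1.43 ± 0.01 in WT/Mock, 1.5 ± 0.05 in KO/Mock, 1.82 ± 0.16 in KO/ERRb-wt and 2.87 ± 0.26 in KO/ERRg-wt, whose clones at 3.05 and 2.68 were the 2 highest of the 14. The DNA-binding mutant clones lay at 1.72 and 0.795, and the latter, clone 9-8, was the only clone with less Krt8 than Krt18 per length. No test was run on these ratios.

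Krt7 moved the other way in the mutants. It was scarce in the mock clones, at 1.06 and 0.968 CPM in WT/Mock and 0.227 and 0.411 CPM in KO/Mock, and fell in the knockout (log2 -1.65 ± 0.48, adjusted p = 0.0205). With wild type ERR beta it stood at 0.281 and 0.126 CPM, the lowest group mean, overlapping with KO/Mock. All 3 mutants and ERR gamma were above both WT/Mock clones. The clones read 1.74 and 2.43 CPM in KO/ERRb-DBDm3, 3.92 and 3.05 in KO/ERRb-DBDm6, 1.66 and 3.90 in KO/ERRb-AF2M6 and 6.27 in both clones of KO/ERRg-wt. Against KO/Mock the rise was 2.69 ± 0.46, 3.43 ± 0.46, 3.10 ± 0.46 and 4.28 ± 0.46 on the log2 scale (adjusted p = 0.00214, 0.000212, 0.000436 and 6.63e-05), or 6.45-fold, 10.8-fold, 8.58-fold and 19.4-fold. Against KO/ERRb-wt it was larger still, at 3.33 ± 0.49, 4.07 ± 0.48, 3.74 ± 0.49 and 4.92 ± 0.49. These folds rest on few reads in the reference groups, with 29 counts over both KO/Mock clones and 20 over both KO/ERRb-wt clones. KO/ERRb-AF2M6 overlapped with each of the other 2 mutants, which did not overlap with each other, and ERR gamma lay above all 3.

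As a share of the 4 keratins per length, Krt7 went from a trace to a sizeable part of the total. It made up 2.00 ± 0.02% in WT/Mock, 1.64 ± 0.50% in KO/Mock and 0.817 ± 0.22% in KO/ERRb-wt. It made up 22.4 ± 16.3% in KO/ERRb-DBDm3, 22.8 ± 7.58% in KO/ERRb-DBDm6, 16.5 ± 8.63% in KO/ERRb-AF2M6 and 21.4 ± 3.24% in KO/ERRg-wt. The lowest of these 8 clones (10.4%) was above the highest of the other 6 (2.01%). The summed level was 31.9 ± 1.73 CPM per kb in WT/Mock and 12.1 ± 1.34 in KO/Mock, was 7.34 to 10.5 in the mutants, and stood at 18.7 ± 2.84 in KO/ERRg-wt. These sums and shares were not tested.

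**Figure D2:**
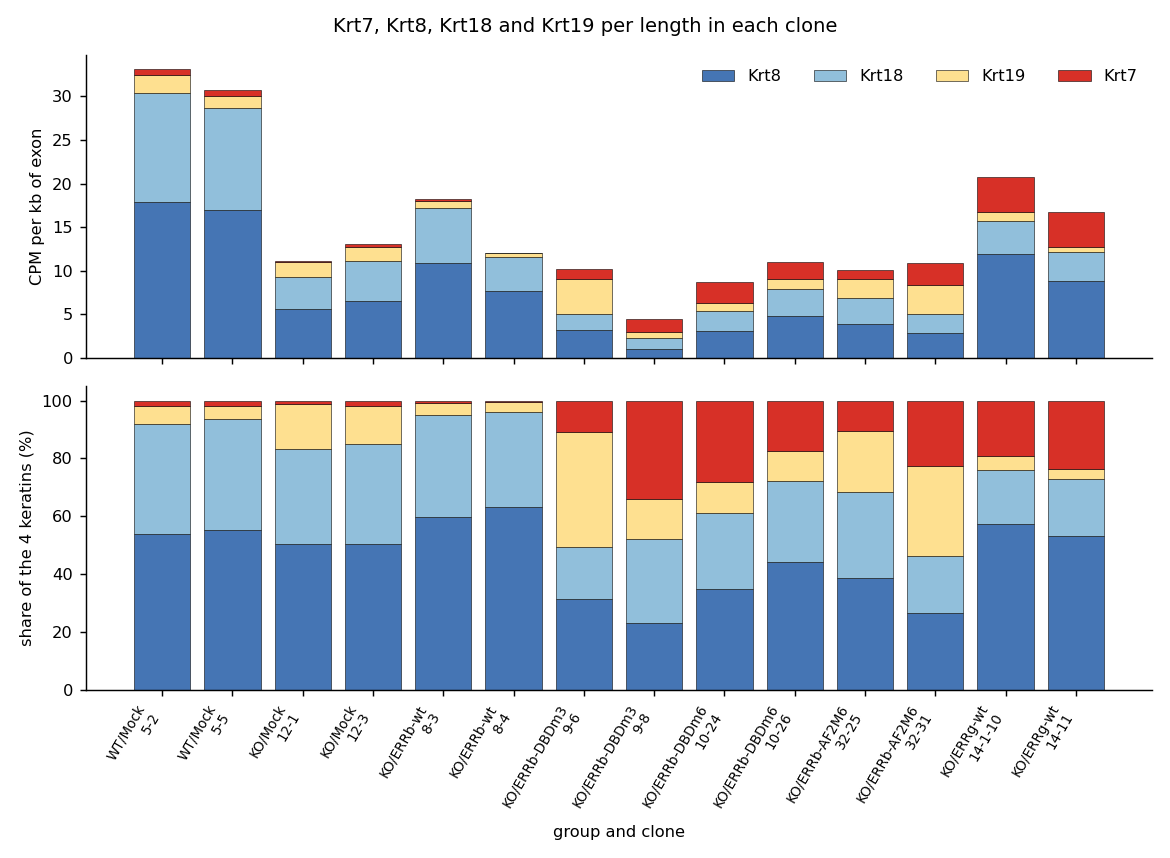
The 4 keratins in each of the 14 clones, stacked, as CPM per kb of exon (top) and as the share of their sum in percent (bottom). WT/Mock has the tallest bars, and the Krt7 block is at most 2.01% in the mock and wild type ERR beta clones and at least 10.4% in the other 8 clones.

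Krt19, a type I chain that is widespread in simple epithelia, showed no such order. It read 2.80 and 1.90 CPM in WT/Mock and 2.39 and 2.31 CPM in KO/Mock (log2 0.00 ± 0.62, adjusted p = 0.998). Low clones were those of wild type ERR beta (1.04 and 0.569 CPM), ERR gamma (1.36 and 0.829 CPM) and KO/ERRb-DBDm6 (1.28 and 1.56 CPM) and clone 9-8 of KO/ERRb-DBDm3 (0.865 CPM), while the other clone of that group, 9-6, was the highest of all 14 at 5.56 CPM. The 2 clones thus lay 6.43-fold apart, the widest gap of any of the 9 genes in any group. KO/ERRb-AF2M6 read 2.96 and 4.64 CPM. With only the compared clones fitted, Krt19 passed as lower than KO/Mock in KO/ERRb-wt, KO/ERRb-DBDm6 and KO/ERRg-wt (adjusted p = 0.00631, 0.00883 and 0.000657). It also passed as lower in KO/ERRb-wt than in WT/Mock (adjusted p = 0.027). In the fit to all 14 clones it was called only for KO/ERRb-DBDm3 and KO/ERRb-AF2M6 against KO/ERRb-wt (2.00 ± 0.66, adjusted p = 0.0397, and 2.23 ± 0.66, adjusted p = 0.0194). The second call was lost without 8-3, 8-4 or 32-31 and without a filter. The first was lost without a filter, with the chromosome offset, on the 4 clones alone, and without 8-3, 8-4 or 9-6 (without 9-6 it became 0.10, adjusted p = 0.889, over a range of 0.000313 to 0.889 across all alternatives). Against KO/Mock the difference of KO/ERRb-DBDm3 was 0.46 ± 0.61 with both clones, -1.44 without 9-6 and 1.24 without 9-8. Both of the latter passed the threshold, in opposite directions (adjusted p = 0.0216 and 0.0291, over a range of 0.0216 to 0.989), so that sign and call follow the clone kept.

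Krt7, Krt8 and Krt18 are also trophectoderm genes. The 8 trophoblast markers (Cdx2, Eomes, Elf5, Gata3, Hand1, Ascl2, Tpbpa and Plac1) summed to 11.5 to 14.1 CPM in WT/Mock, 16.9 to 18.4 in KO/Mock, 16.9 in both clones of KO/ERRb-wt, 6.37 to 15.7 in the 3 mutants and 9.86 to 10.2 in KO/ERRg-wt. Tpbpa was at 0 in all 14 clones, and 1 to 4 of the 8 were at 0 in each. Only 4 of the 8 passed the filter on low counts. Every clone of the mutants and ERR gamma lay below both KO/Mock clones in this sum. Clone 32-25 of KO/ERRb-AF2M6, at 15.7 CPM, lay above both WT/Mock clones. Primitive endoderm markers summed to 34.6 to 36.0 CPM in WT/Mock, 48.4 to 50.8 in KO/Mock, 32.8 to 33.7 in KO/ERRb-wt and 8.29 to 18.8 in the mutants and ERR gamma. Single genes did not follow these sums. In the knockout 4 of the 8 fell (19.4% of all genes) and 1 rose (18%), with a median log2 of -1.31. In KO/ERRg-wt the median against KO/Mock was 0.64, with 1 higher (20%) and 1 lower (18.3%). Fibroblast (feeder) markers summed to 1.74 to 7.13 CPM and surface ectoderm markers to 4.17 to 12.8 CPM over all clones. The part of any of these cell types in the keratin levels was not tested.

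Itga3 (mm10 chr11:95044475-95076811, minus strand) had the largest drop of the 9 genes in the knockout. Its clones stood at 51.9 and 38.6 CPM in WT/Mock and 8.69 and 9.41 CPM in KO/Mock, a fall of 5.00-fold (log2 -2.32 ± 0.25, adjusted p = 0.000179). Wild type ERR beta clones read 19.2 and 17.4 CPM, 2.02-fold above KO/Mock with no overlap. This difference just missed the threshold (1.02 ± 0.24, adjusted p = 0.0606) and passed it with DESeq2 (1.00, adjusted p = 0.0032) and with the 4 clones fitted alone (1.01, adjusted p = 0.000561), over a range of 0.000561 to 0.378 across its alternatives. The level with wild type ERR beta was still below WT/Mock (-1.31 ± 0.24, adjusted p = 0.00884). The mutants lay below the knockout itself. Clones of KO/ERRb-DBDm3 read 3.28 and 1.82 CPM, those of KO/ERRb-DBDm6 2.63 and 3.93 CPM and those of KO/ERRb-AF2M6 1.45 and 1.44 CPM, falls of 3.52-fold, 2.75-fold and 6.24-fold against KO/Mock (log2 -1.81 ± 0.27, -1.46 ± 0.26 and -2.64 ± 0.28, adjusted p = 0.000977, 0.00125 and 7.12e-05). ERR gamma clones read 16.6 and 12.9 CPM, above KO/Mock (0.70 ± 0.25, adjusted p = 0.0443). That last call was lost without any one of the 4 clones (12-1, 12-3, 14-1-10 or 14-11, with log2 values of 0.50 to 0.87) and under 3 other settings, over a range of 4.25e-05 to 0.263. KO/ERRg-wt and KO/ERRb-wt did not differ beyond the test (-0.31 ± 0.24, adjusted p = 0.373).

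Zyx (mm10 chr6:42349828-42360213, plus strand) was not called among the first 3 groups. It stood at 52.0 and 50.3 CPM in WT/Mock, 39.8 and 36.7 CPM in KO/Mock and 46.5 and 38.4 CPM in KO/ERRb-wt, and neither KO/Mock against WT/Mock (log2 -0.42 ± 0.33, adjusted p = 0.334) nor KO/ERRb-wt against KO/Mock (0.15 ± 0.33, adjusted p = 0.833) was called. The first of these passed with its 4 clones fitted alone (adjusted p = 0.000915, over a range of 0.000915 to 0.576). In the other 4 groups it fell. The clones read 9.10 and 3.91 CPM in KO/ERRb-DBDm3, 5.18 and 5.23 in KO/ERRb-DBDm6, 6.21 and 2.72 in KO/ERRb-AF2M6 and 8.10 and 8.48 in KO/ERRg-wt, all below every clone of the first 3 groups. Against KO/Mock these were falls of 5.83-fold, 7.35-fold, 8.52-fold and 4.61-fold (log2 -2.54 ± 0.36, -2.88 ± 0.37, -3.09 ± 0.37 and -2.21 ± 0.36, adjusted p = 0.000808, 0.000163, 0.000137 and 0.000889).

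Chromosome 6 was lower in the same 4 groups. The median of the fitted log2 fold changes of its genes against KO/Mock was -0.63, -0.93, -0.96 and -0.38. When each clone was offset by the median of its chromosome before the same fit, Zyx was still lower by -1.92, -1.91, -2.11 and -1.84 (adjusted p = 0.00258, 0.000871, 0.000651 and 0.00113). Within KO/ERRb-DBDm3, clone 9-8 had the lower chromosome 6 median of the pair (-0.93 against -0.41 for clone 9-6, relative to WT/Mock) and the lower Zyx ratio (-3.71 against -2.49). KO/ERRb-AF2M6 clones had nearly the same chromosome 6 median (-0.94 for 32-25 and -0.95 for 32-31) and Zyx ratios of -3.04 and -4.23. What else sets Zyx apart in these groups was not tested.

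Cdh1 (mm10 chr8:106603368-106670246, plus strand), encoding the cadherin of adherens junctions, was the most even of the 9 genes. It stood at 495 and 470 CPM in WT/Mock, 528 in both KO/Mock clones and 489 and 458 in KO/ERRb-wt, with no call among these 3 groups. It was 396 and 393 CPM in KO/ERRb-DBDm3, 394 and 426 in KO/ERRb-DBDm6, 385 and 362 in KO/ERRb-AF2M6 and 412 in both clones of KO/ERRg-wt. Against KO/Mock it fell by 1.34-fold, 1.29-fold, 1.42-fold and 1.28-fold (log2 -0.42 ± 0.06, -0.37 ± 0.06, -0.50 ± 0.06 and -0.36 ± 0.06, adjusted p = 0.000837, 0.000771, 0.000135 and 0.00102). These small falls were called because the clones of a group lay at most 0.12 apart on the log2 scale. They were also smaller than the shift of the chromosome, whose median fitted log2 fold change was -0.53, -0.49, -0.55 and -0.53. After the offset by the chromosome median the sign turned. Cdh1 was then higher than KO/Mock by 0.12, 0.13, 0.05 and 0.17 (adjusted p = 0.159, 0.0837, 0.55 and 0.0346) and higher than KO/ERRb-wt by 0.28, 0.29, 0.21 and 0.33 (adjusted p = 0.00466, 0.00223, 0.013 and 0.00242). The decrease of Cdh1 in these groups is one in CPM and not relative to its chromosome.

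**Figure D3:**
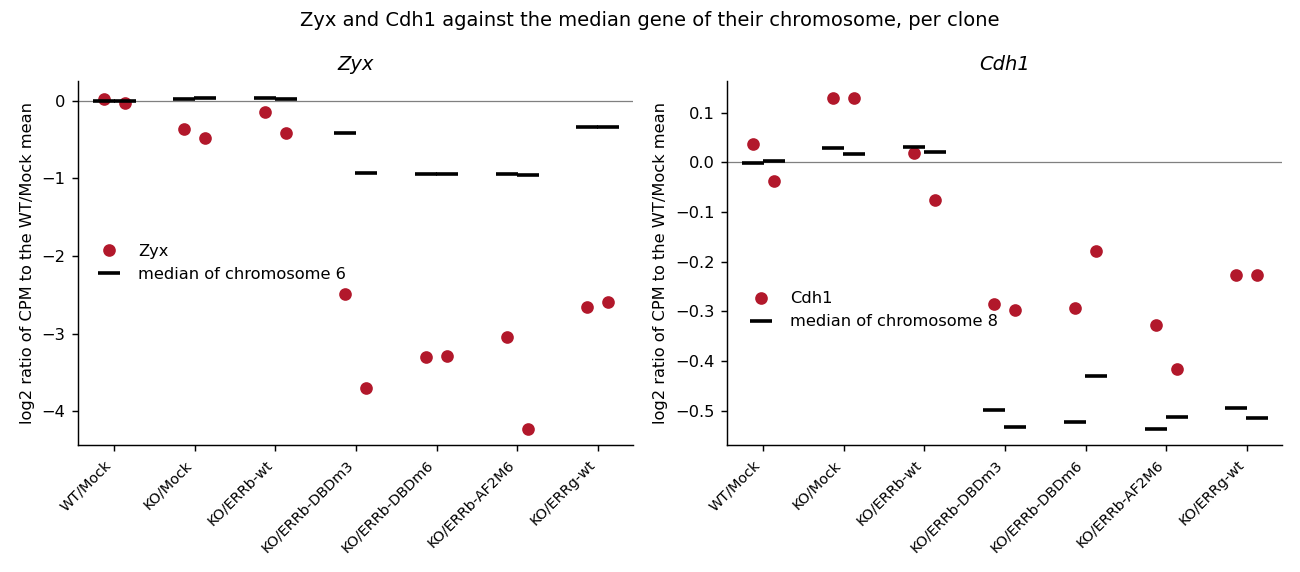
Log2 ratio of CPM to the WT/Mock mean for Zyx (left) and Cdh1 (right) in each of the 14 clones (points), with the median over the genes of chromosome 6 or 8 in the same clone (bars). In the mutants and ERR gamma, Zyx differs from its chromosome by -2.08 or further, whereas Cdh1 lies above its own.

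Epcam (mm10 chr17:87635979-87651127, plus strand), a homophilic adhesion protein of epithelial and stem cells, decreased in small steps. It stood at 267 and 276 CPM in WT/Mock, 224 and 241 in KO/Mock and 243 and 228 in KO/ERRb-wt, with no call among the 3. KO/Mock and WT/Mock did not overlap, and their difference passed with only the compared clones fitted (adjusted p = 0.00836). The mutants read 179 and 186 CPM in KO/ERRb-DBDm3, 164 and 198 in KO/ERRb-DBDm6 and 198 and 157 in KO/ERRb-AF2M6, and fell against KO/Mock by 1.28-fold to 1.31-fold (log2 -0.35 ± 0.11, -0.36 ± 0.11 and -0.39 ± 0.11, adjusted p = 0.0381, 0.0211 and 0.0168). ERR gamma clones were lowest at 148 and 136 CPM (-0.71 ± 0.11, adjusted p = 0.000638). The call in the mutants was lost without any one of the clones 12-1, 12-3, 9-6 or 9-8 for KO/ERRb-DBDm3, without 12-1, 12-3 or 10-24 for KO/ERRb-DBDm6 and without 12-3 or 32-31 for KO/ERRb-AF2M6. The call in ERR gamma clones held without each clone. Chromosome 17 was not shifted, with median fitted log2 fold changes of 0.05 to 0.07 against KO/Mock.

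Grhl2 (mm10 chr15:37233036-37363568, plus strand) rose in the knockout while Krt7, Krt8 and Krt18 fell. Its clones read 5.39 and 8.65 CPM in WT/Mock and 29.9 and 29.6 CPM in KO/Mock, a rise of 4.24-fold (log2 2.08 ± 0.31, adjusted p = 0.000867). Wild type ERR beta clones read 15.3 and 18.8 CPM, between the mocks, with no call against KO/Mock (-0.80 ± 0.29, adjusted p = 0.172) and a call against WT/Mock (1.28 ± 0.31, adjusted p = 0.0262) that was lost without clone 5-2 or 8-4. The mutants read 18.7 and 30.8 CPM in KO/ERRb-DBDm3, 19.7 and 24.9 in KO/ERRb-DBDm6 and 36.7 and 21.1 in KO/ERRb-AF2M6, and none was called against KO/Mock or KO/ERRb-wt. The nearest to a call was KO/ERRb-AF2M6 against KO/ERRb-wt (0.76 ± 0.29, adjusted p = 0.0558), which passed with RLE scaling, with DESeq2 and without clone 32-31, over a range of 0.0174 to 0.467. KO/ERRb-DBDm6 passed as lower than KO/Mock with only the compared clones fitted (adjusted p = 0.0047). ERR gamma stood apart, at 3.08 and 2.64 CPM, below every other clone including WT/Mock. The fall was 10.4-fold against KO/Mock (-3.37 ± 0.35, adjusted p = 5.95e-05) and 5.94-fold against KO/ERRb-wt (-2.57 ± 0.35, adjusted p = 0.000509). Over the 14 clones the Pearson r of Grhl2 was -0.648 with Krt8 and -0.016 with Cdh1, as a description.

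Counted together, 5 of the 9 genes were called in KO/Mock against WT/Mock, where 37.4% of all tested genes were called. Of these, 4 were lower (19.4% of all genes) and 1 higher (18%). For KO/ERRb-wt against KO/Mock, edgeR called 0 of 9, where 1.85% of all genes were called (1.07% higher and 0.781% lower). At an unadjusted p below 0.05 there were 4 (Itga3, Grhl2, Cdh1 and Krt19; 19.7% of all genes). DESeq2 (6.1% of all genes) and limma-voom, fitted to libraries rather than clones (3.75%), each called 1, Itga3. Fitted on the 4 clones alone, edgeR called 4 (Krt8, Krt19, Grhl2 and Itga3; 10.9% of all genes). KO/ERRb-wt differed from WT/Mock in 4 of 9 (10.3% of all genes). Krt7, Krt18 and Itga3 were lower (5.79% of all genes) and Grhl2 higher (4.49%), and all 4 calls were lost without clone 5-2 (1.59% of all genes called) or without clone 8-4 (1.84%).

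Against KO/Mock, Krt7 was called higher and Cdh1, Epcam and Zyx lower in the 3 mutants and in ERR gamma clones alike, and Itga3 was lower in the 3 mutants. KO/ERRb-DBDm3 had 1 gene higher (12.4% of all genes) and 6 lower (13.3%), 7 in all (25.7%). KO/ERRb-DBDm6 had 1 higher (20.8%) and 4 lower (20.6%), 5 in all (41.4%), and KO/ERRb-AF2M6 likewise 1 higher (18.1%) and 4 lower (19.1%), 5 in all (37.1%). KO/ERRg-wt had 2 higher (20%) and 4 lower (18.3%), 6 in all (38.3%). Fitted on the 4 clones of the comparison alone, the count became 0 for KO/ERRb-DBDm3 (1.99% of all genes) and 8 for KO/ERRb-DBDm6 (57.3%).

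Against KO/ERRb-wt, KO/ERRb-DBDm3 had 2 genes higher (15.3% of all genes) and 6 lower (16.8%), 8 in all (32.1%), but 4 on the 4 clones alone (5.45%) and 5 without clone 8-3 (18.8%). KO/ERRb-DBDm6 had 1 higher (19.1%) and 6 lower (20%), 7 in all (39%), and 3 without clone 8-3 (28.8%) or without 10-24 (25.6%). KO/ERRb-AF2M6 had 2 higher (20.3%) and 6 lower (22.8%), 8 in all (43.2%), 4 without clone 8-3 (29.2%) and 5 without 32-31 (28.8%). KO/ERRg-wt had 1 higher (13.5%) and 4 lower (11.9%), 5 in all (25.4%). The comparisons against KO/Mock share its 2 clones, and those against KO/ERRb-wt share the other two, so they do not count separately. In KO/Mock against WT/Mock the calls of Krt18, Grhl2 and Itga3 held without each clone, while those of Krt7 and Krt8 were lost without 5-2 (14.7% of all genes called) or without 12-1 (17.5%), leaving 3 calls.

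With 2 clones a side, groups that do not overlap are common and carry little weight alone. Clones of KO/Mock and WT/Mock did not overlap for 8 of the 9 genes and for 79% of all genes. The counts were 5 of 9 (57.8% of all genes) for KO/ERRb-wt against KO/Mock and 8 (62.9%) against WT/Mock. Against KO/Mock they were 7 (62.1%) for KO/ERRb-DBDm3, 9 (78.7%) for KO/ERRb-DBDm6, 8 (73.5%) for KO/ERRb-AF2M6 and 8 (78.6%) for KO/ERRg-wt. Against KO/ERRb-wt they were 7 (60.9%), 9 (73.3%), 9 (71.7%) and 7 (68.7%) in the same order.

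**Figure D4:**
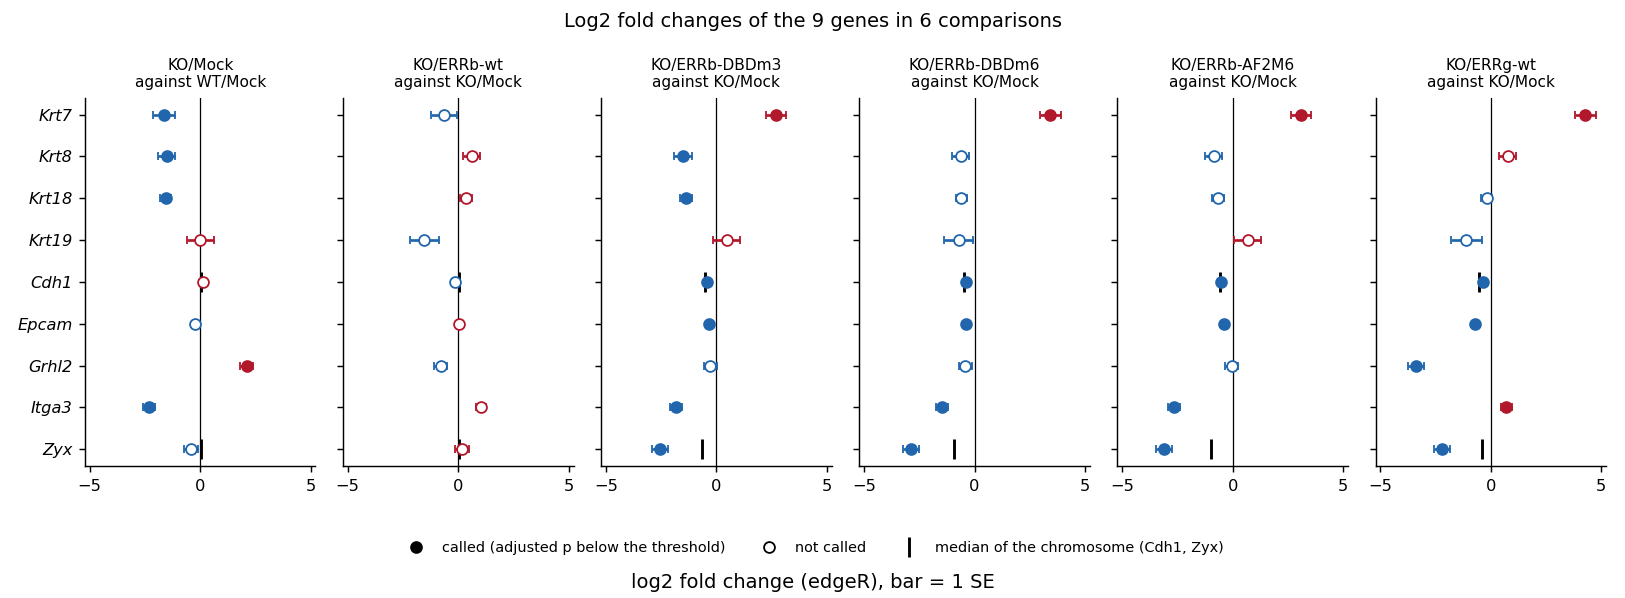
Log2 fold changes from edgeR (x axis, bar of 1 SE) of the 9 genes in 6 comparisons, with 1 panel per comparison; red is above 0, blue is below 0, filled points were called at an adjusted p below 0.05, open points were not, and the vertical tick is the median of the chromosome for Cdh1 and Zyx. Krt7 is filled on the right in the 4 panels of mutants and ERR gamma, Zyx is filled on the left in the same 4, and no point is filled for KO/ERRb-wt against KO/Mock.

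The wider epithelial programme was read from 7 lists, which were chosen with earlier results of these data known. Their counts stand beside 18% of all genes higher and 19.4% lower in the knockout. In the knockout many junction genes fell, as Krt8 and Krt18 did. Of 27 tested junction genes 16 fell and none rose, with a median log2 of -0.84 beside -0.003 over all tested genes. Only 1 of the 27 lies on chromosome 6, 8 or 14, and it was not called. Examples were cingulin, a tight junction plaque protein (Cgn, -1.16 ± 0.14), claudin 4 (Cldn4, -1.26 ± 0.17), the polarity gene Llgl2 (-0.99 ± 0.13) and alpha-catenin, which ties cadherins to actin (Ctnna1, -0.41 ± 0.06). Of 17 epithelial regulators and proteases 1 rose, the splicing factor Esrp1 (0.90 ± 0.11), and 3 fell, Klf4 (-0.82 ± 0.15), the protease inhibitor Spint1 (-1.30 ± 0.24) and its target St14 (-0.85 ± 0.22). Of 12 mesenchymal transition genes 4 rose and none fell, namely the Cdh1 repressors Snai1 (2.85 ± 0.36) and Zeb2 (2.13 ± 0.67), N-cadherin (Cdh2, 2.36 ± 0.44) and fibronectin (Fn1, 0.21 ± 0.07). The median log2 of these 12 genes was -0.07, with 6 above 0. Snai1 went from 0.367 to 2.65 CPM and Zeb2 from 0.101 to 0.453 CPM, while Cdh1 itself was not called. With wild type ERR beta 2 junction genes rose against KO/Mock, where 1.07% of all genes rose (Llgl2 0.92 ± 0.13 and Cldn4 0.78 ± 0.17), none fell, and the median of the 27 was 0.35 beside 0.006 over all genes. Esrp1 fell (-0.89 ± 0.11).

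In the mutants the junction list split. Against KO/Mock, 3 rose and 5 fell in KO/ERRb-DBDm3 (12.4% and 13.3% of all genes), 7 and 6 in KO/ERRb-DBDm6 (20.8% and 20.6%) and 5 and 6 in KO/ERRb-AF2M6 (18.1% and 19.1%), with medians of -0.02, 0.09 and -0.01. Beta-catenin (Ctnnb1) rose in all 3, by 0.41 ± 0.06, 0.35 ± 0.06 and 0.41 ± 0.06. Tricellulin (Marveld2) fell by 2.13 ± 0.28 in KO/ERRb-DBDm3 and by 1.75 ± 0.27 in KO/ERRb-AF2M6, and occludin (Ocln) fell by 2.20 ± 0.41 in KO/ERRb-DBDm3. Among the regulators, Tfap2c rose in each (2.13 ± 0.26, 1.83 ± 0.26 and 2.11 ± 0.26) and Tfap2a fell in each (-1.44 ± 0.25, -1.14 ± 0.25 and -1.74 ± 0.26). In ERR gamma clones 9 junction genes rose and 2 fell (20% and 18.3% of all genes), with a median of 0.13. The desmosome genes Dsp (2.55 ± 0.29) and Dsg2 (1.43 ± 0.17), Llgl2 (1.75 ± 0.14) and Ctnna1 (0.66 ± 0.06) led. Esrp1 fell by 2.34 ± 0.12 there, beside Grhl2.

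Other intermediate filament genes were fewer. Of 11 tested, 2 rose (18% of all genes) and 2 fell (19.4%) in the knockout: vimentin (Vim, 1.02 ± 0.21) and Krt23 (3.00 ± 0.71) were higher and desmin (Des, -3.06 ± 0.36) and Krt17 (-1.52 ± 0.39) lower. Krt42, a type I keratin, rose with Krt7 in KO/ERRb-DBDm3 (1.47 ± 0.37), KO/ERRb-AF2M6 (2.01 ± 0.37) and KO/ERRg-wt (2.63 ± 0.38), from 6.45 CPM in KO/Mock to 17.9, 26.0 and 40.0 CPM. Krt42 and Krt17 are near-identical in sequence over parts of their length, as are many keratins and their pseudogenes, and reads aligning to several places were not counted, so the level of each is uncertain.

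The partners of Itga3 and Zyx moved in both directions. In the knockout 6 of 17 integrin and laminin genes fell (19.4% of all genes) and 2 rose (18%), with a median of -0.60: the fibronectin receptor chain Itga5 (-1.86 ± 0.17) and laminin Lamb2 (-0.77 ± 0.15) were lower, and the collagen receptor chain Itga1 (1.97 ± 0.29) and Lamb1 (1.29 ± 0.15) higher. The laminin chain Lama3 rose in every mutant and in ERR gamma clones against KO/Mock, by 2.88 ± 0.29 in KO/ERRb-DBDm3, 4.54 ± 0.30 in KO/ERRb-DBDm6, 4.19 ± 0.30 in KO/ERRb-AF2M6 and 3.07 ± 0.30 in KO/ERRg-wt. Its level went from 2.28 CPM in KO/Mock to 17, 53.5, 41.9 and 19.2 CPM, while Itga3, a chain of its receptor, fell in the mutants. The beta chain Itgb1 fell by 0.90 ± 0.10, 0.47 ± 0.10 and 0.86 ± 0.10 in the 3 mutants. It was also called lower in KO/ERRg-wt against KO/Mock. It lies on chromosome 8, whose median was lower there by about the amount given for Cdh1. Itga5 rose in KO/ERRg-wt (1.67 ± 0.17) and KO/ERRb-DBDm6 (0.86 ± 0.17).

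Of 20 focal adhesion genes, 8 fell (19.4% of all genes) and 2 rose (18%) in the knockout, led by vinculin (Vcl, -0.88 ± 0.09) and kindlin 2 (Fermt2, -0.68 ± 0.09), both on chromosome 14. The actin regulator Vasp, a binding partner of zyxin, also fell (-0.61 ± 0.12) and the tensin Tns3 rose (0.48 ± 0.11). Against KO/Mock, 2 rose and 7 fell in KO/ERRb-DBDm3, 9 and 6 in KO/ERRb-DBDm6, 6 and 7 in KO/ERRb-AF2M6 and 6 and 3 in KO/ERRg-wt, beside the same shares of all genes as given for the junction list, with medians between -0.05 and 0.12. Tns1 fell in all 3 mutants (-2.26 ± 0.46, -2.83 ± 0.47 and -2.45 ± 0.46) and Bcar1, on chromosome 8, in all 4 groups (-0.63 ± 0.08, -0.59 ± 0.08, -0.64 ± 0.08 and -0.83 ± 0.08). The zyxin relative Trip6 fell in KO/ERRg-wt (-0.66 ± 0.08), where Vasp rose (0.99 ± 0.12).

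Targets of the actin-responsive factors SRF and YAP, which read out tension at focal adhesions, fell in 5 of 15 (19.4% of all genes) and rose in 1 (18%) in the knockout, with a median of -0.25. Cyr61 (-1.99 ± 0.29) and transgelin (Tagln, -3.30 ± 0.52) were the clearest, together with myosin light chain 9 (Myl9, -1.63 ± 0.48) and Tpm4 (-0.57 ± 0.16). Against KO/Mock, 1 of the 15 rose (12.4% of all genes) and 4 fell (13.3%) in KO/ERRb-DBDm3, with a median of -0.34. KO/ERRb-DBDm6 had 1 higher (20.8%) and 3 lower (20.6%), with a median of -0.06. KO/ERRb-AF2M6 had 2 higher (18.1%) and 4 lower (19.1%), with a median of -0.12. KO/ERRg-wt had 1 higher (20%) and 8 lower (18.3%), with a median of -0.52. The cytoplasmic actins went opposite ways against KO/Mock: Actg1 rose by 1.26 ± 0.21, 1.55 ± 0.21, 1.5 ± 0.21 and 0.79 ± 0.21 in KO/ERRb-DBDm3, KO/ERRb-DBDm6, KO/ERRb-AF2M6 and KO/ERRg-wt, and Actb fell by 0.29 ± 0.08, 0.44 ± 0.08, 0.39 ± 0.08 and 0.34 ± 0.08. Reads that align to both of these genes were not counted for either, and how many there were was not measured.

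The genes most like 5 of the 9 in their pattern were found by the Pearson correlation of log2 CPM over the 14 clones. For Krt8 they were Aes (r = 0.98), Letmd1 (0.977) and Hymai (0.974), and for Krt18 Tmem231 (0.98), Zfp185 (0.967) and Tgm1 (0.952). Krt19 had weaker matches in Nckap5 (0.862), Lgals1 (0.86) and Mfsd2a (0.84). The 3 nearest to Cdh1, Pard3 (0.969), Nfix (0.964) and Cnot1 (0.964), all lie on chromosome 8 with it. Epcam was nearest to Myl9 (0.957), Fcgbp (0.953) and Cers4 (0.952). These r values were picked as the highest of 15238 and the clones share groups, so they describe the table only.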

How the data were processed

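Libraries were stranded and made from RNA without its ribosomal part, and reads were single-end, 100 bp long, per the labels' protocols. The submitters' processing notes name STAR 2.7.8a and mm10. The authors deposited whole-number counts per gene symbol from featureCounts (2.0.1 in the file header, 2.0.10 in the notes). By that header, exons were counted on the reverse strand, a read over several genes went to each, and multi-mapping reads to none. None of the 9 genes shared exonic bases with another same-strand gene. Library totals were 21276790 to 30021667 counts. No library was left out.

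Libraries of a clone were summed. Genes passing filterByExpr (15238) were fitted with edgeR 4.0.16 in R 4.3.3 (TMM, robust quasi-likelihood, 1 mean per group, 7 residual degrees of freedom), with Benjamini-Hochberg adjustment over all of them in each of 11 comparisons. A count of 0 was given a limit of 3 counts over the group total, which covers counting error only. Chromosome medians are log2 ratios to the WT/Mock mean, or, where so named, medians of fitted fold changes. The alternatives were RLE scaling, TMM without chromosomes 6, 8 and 14, an offset by the chromosome median, no filter on low counts, the compared clones alone, leaving out each clone, DESeq2 1.42.0 and limma-voom (limma 3.58.1) on libraries. The 9 genes and all lists were chosen with earlier results of these data known. List genes are named as the up to 4 called with the smallest p per comparison, and pattern neighbours as the 3 with the highest r.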

Additional observations from a re-analysis of the deposited data

Results flagged for a closer look

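In 3 of 54 groups of 4 libraries (9 genes in the 6 groups with 4 libraries), 1 library lay far from the other three by Dixon's ratio of gap to range, against a critical value of 0.829. For 4 independent values, chance alone gives such a gap in about 1 group in 20. Here the 4 values are 2 libraries from each of 2 clones, which are not independent, so that rate need not hold. For Krt8 in WT/Mock the ratio was 0.876, since library 2 of clone 5-2 read 34.3 CPM and the others 30.3 to 30.8 CPM. For Krt18 in KO/ERRb-DBDm6 it was 0.93, since library 2 of clone 10-26 read 5.32 CPM (131 counts) and the others 3.21 to 3.36 CPM. For Cdh1 in KO/ERRb-AF2M6 it was 0.897, since library 1 of clone 32-31 read 344 CPM and the others 382 to 387 CPM.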

How the results depend on the processing

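With 2 clones per group, 56 of the 396 values of the 9 genes with a clone left out lost their call, 12 changed sign (1 of these became a call in the new direction) and 2 others gained a call. Leaving out single clones gave between 3 and 5 calls for KO/Mock against WT/Mock, 0 and 4 for KO/ERRb-wt against WT/Mock, 5 and 7 for KO/ERRb-DBDm3 against KO/ERRb-wt, 3 and 7 for KO/ERRb-DBDm6 and 4 and 8 for KO/ERRb-AF2M6 against KO/ERRb-wt. Fitting only the clones compared gave 4 calls for KO/ERRb-wt against KO/Mock (10.9% of all genes), 0 for KO/ERRb-DBDm3 (1.99%) and 8 for KO/ERRb-DBDm6 (57.3%) against KO/Mock and 4 for KO/ERRb-DBDm3 against KO/ERRb-wt (5.45%). With fewer samples these fits estimate the spread from 4 clones. RLE scaling, DESeq2 and the fit without a filter changed no direction. DESeq2 called 1 gene for KO/ERRb-wt against KO/Mock (6.1% of all genes).

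Rep numbers in the titles count libraries within a clone, and same-numbered libraries did not deviate together (7 of 66 pairs of clones above 0.1, median correlation 0.00888). The limma-voom fit with this number as a replicate block, on 24 libraries, called 1 gene for KO/ERRb-wt against KO/Mock (3.75% of all genes). Over 81 values it gained 7 calls, lost 1 and turned 1 sign (Krt19, KO/Mock against WT/Mock, -0.0238). The gains were Zyx in KO/Mock against WT/Mock, Itga3 in KO/ERRb-wt against KO/Mock, Krt8 in KO/ERRb-wt against WT/Mock and in KO/ERRb-DBDm6 and KO/ERRb-AF2M6 against KO/Mock, Krt18 in KO/ERRb-AF2M6 against KO/Mock and Grhl2 in KO/ERRb-AF2M6 against KO/ERRb-wt. The loss was Krt19 in KO/ERRb-DBDm3 against KO/ERRb-wt. No paired fit was possible for KO/ERRg-wt because its clones have 1 library each.

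Several uncalled log2 values near 0 changed sign. Krt19 in KO/Mock against WT/Mock became -0.0186 with TMM without chromosomes 6, 8 and 14 and -0.000998 with the chromosome offset, and ran from -0.251 to 0.312 with single clones left out. For KO/ERRb-wt against KO/Mock, Epcam became -0.00665 with the offset. With single clones left out, Epcam ran from -0.0355 to 0.0699 and Krt18 from -0.0557 to 0.643 in that comparison, and Cdh1 from -0.0817 to 0.0225 against WT/Mock. Likewise Grhl2 against KO/Mock ran from -0.67 to 0.046 in KO/ERRb-DBDm3 and from -0.494 to 0.302 in KO/ERRb-AF2M6, and Krt8 from -0.0784 to 0.442 in KO/ERRg-wt against KO/ERRb-wt. Krt19 in KO/ERRb-DBDm3 against KO/Mock is a different case: it ran from -1.44 (without 9-6) to 1.24 (without 9-8), both called. Of called values, those of Cdh1 changed sign under the chromosome offset, to 0.118, 0.133, 0.0475 and 0.171 against KO/Mock for KO/ERRb-DBDm3, KO/ERRb-DBDm6, KO/ERRb-AF2M6 and KO/ERRg-wt, and to 0.279, 0.295, 0.209 and 0.332 against KO/ERRb-wt. The offset removes the chromosome's own shift by construction. Krt7 had 20 to 29 counts in its lowest groups, which limits its folds.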
